A study of Asparagus officinalis with 3 samples.

Results

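The miR168 family of garden asparagus (Asparagus officinalis) was represented by 12 of the 194 miRNA sequences listed in the deposited expression table. All sequences that the table assigns to the family miR168 were taken, together with the 7 rows of the target table, out of 463, that carry the same family name. The values came from 1 female and 1 male small RNA library, each made from pooled RNA of leaves, roots, stems and flowers of 3-year-old greenhouse plants of the cultivar "Grand". Equal amounts of RNA from each organ were mixed, so a value is an average over organs and several plants, and a difference between the sexes cannot be told apart from a difference in organ development or between pools. A degradome library (sequenced ends of cleaved mRNA) was made from both sexes together and was not analysed here. As each sex had 1 library, no spread between plants can be estimated and no p-value was computed.

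In plants, miR168 is the small RNA that acts on the mRNA of ARGONAUTE1 (AGO1), the protein that carries most miRNAs to their targets. In Arabidopsis, AGO1 loaded with miR168 cuts the AGO1 mRNA, and AGO1 in turn stabilises miR168, which forms a feedback loop that holds AGO1 within limits. In rice, the argonaute AGO18 binds miR168 and relieves AGO1 from it. A miRNA is cut by a dicer protein from a hairpin as a duplex, of which the guide strand is usually retained by an argonaute and the opposite strand, from the other arm of the hairpin, is usually lost.

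The 12 sequences fell into 2 unrelated groups of 6 when they were aligned without gaps. Within a group, identical bases exceeded mismatches by 16 to 21 in each of the 30 pairs, and between the groups by at most 3 in 36 pairs. The groups were named after a rice hairpin that the study listed for aof-miR168a-2, in which one group lies at the 5′ end (5′ arm) and the other at the 3′ end (3′ arm). All members are shown, since the comparison turns on single bases and ends. Capitals mark the seed, bases 2 to 8 from the 5′ end, and the 5′ arm members are given first.

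aof-miR168h: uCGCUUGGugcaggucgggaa
aof-miR168i: uCGCUUGGugcaggucggguc
aof-miR168a-2: uCGCUUGGugcagaucgggac
aof-miR168a: uCGCUUGGugcaggucggga
aof-miR168e: uCGCUUGGugcaggucgggu
aof-miR168d: cGCUUGGUgcaggucgggaa

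The 3′ arm members are written in the same way.

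aof-miR168a-1: cCCGCCUUgcaccaacugaau
aof-miR168g: cCCGCCUUgcaucaacugaau
aof-miR168f: cCCGCCUUgcaccaagugaau
aof-miR168c: cCGCCUUGcaccaacugaau
aof-miR168a-3: uCCCGCCUugcaccaacugaau
aof-miR168a-4: gAUCCCGCcuugcaccaagugaau

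The 5′ arm members were the guide-like sequences. Compared with aof-miR168h, and with positions counted from 1 at its 5′ end, aof-miR168i carried A20U and A21C, and aof-miR168a-2 carried G14A and A21C. The 20-nt aof-miR168a lacked the last base of aof-miR168h, aof-miR168d lacked the first base, and aof-miR168e had A20U and lacked the last base. The seed CGCUUGG was shared by 5 of the 6, and the shifted aof-miR168d had GCUUGGU. In the 3′ arm, aof-miR168g differed from aof-miR168a-1 by C12U and aof-miR168f by C16G. The 20-nt aof-miR168c lacked the first base of aof-miR168a-1, the 22-nt aof-miR168a-3 had 1 more base at the 5′ end, and the 24-nt aof-miR168a-4 had 3 more bases there and the C16G of aof-miR168f. The seed CCGCCUU was shared by 3 of these 6, and each of the other 3 had a seed of its own.

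Summed over the 12 members, the family was present at nearly the same level in both libraries. The sum was 1606 TPM in the female library against 1484 TPM in the male library, where TPM is the authors' name for the reads of a sequence scaled to the reads of its library, without division by length. The female to male ratio was 1.08, far from the 2-fold difference that the study's methods required. It changed side when the values were rescaled by the median ratio of all listed miRNAs, to 0.957, so no direction is given. Over all 193 miRNAs with a value in both libraries, the median log2 ratio of female to male was 0.18, and over the 12 members it was 0.16. By summed value the family was number 5 of 26 families in the female and number 4 in the male library. It made up 2.82% and 2.92% of the summed value of all listed miRNAs. The families with the nearest log2 ratio to that of miR168 (0.11), over these 2 libraries, were miR159 (0.16), miR172 (0.16) and miR894 (0.04).

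Under this even sum, the sums of the 5′ arm and of the 3′ arm members went in opposite directions. From which hairpins the members came was not determined. The 5′ arm members summed to 1153 TPM in the female library against 799 TPM in the male library, a female to male ratio of 1.44. The 3′ arm members summed to 453 TPM in the female library against 686 TPM in the male library, a male to female ratio of 1.51. The 5′ arm was thus the larger one in both libraries, by 2.54 times in the female library against by 1.16 times in the male library. The 3′ arm held 28.2% of the family in the female library against 46.2% in the male library. As both arms were measured in the same library, this share does not depend on how the libraries were scaled, and the arm ratio was 2.18 times as high in the female library.

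The low values of the table lay on even steps, of 0.229 TPM in the female library against 0.157 TPM in the male library. If a step stands for 1 read, the scaling totals were 4373600 and 6374775 reads, which are not the read totals that the study states for its libraries, and the condition was not tested. The counting intervals rest on it, and cover counting error only and neither plants nor library preparation. The 95% exact conditional interval of the 2.18-fold difference in arm ratio was then 2.04 to 2.33. The exact (Clopper-Pearson) 95% intervals of the 3′ arm share were 27.2% to 29.3% in the female library against 45.2% to 47.2% in the male library. These arm shares did not overlap within counting error, but whether they differ between plants of the 2 sexes cannot be read from 1 library each.

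**Figure D1:**
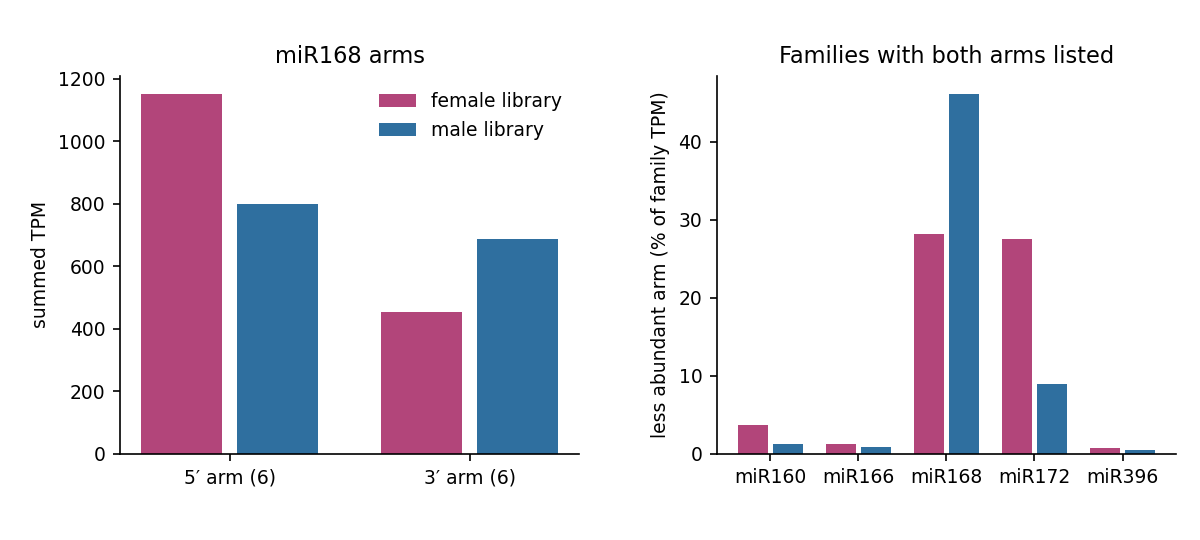
Left, summed TPM of the 6 members of each miR168 arm in the female and the male library, 1 library per bar and no error bars. Right, the share of a family's TPM in its less abundant arm, for the 5 families in which ungapped pairing found both arms. The miR168 share was 28.2% in the female and 46.2% in the male library. In miR166, miR172 and miR396 the share was higher in the female library, and the miR160 arm, a single sequence, was listed only through the female library.

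The shift of the arms was carried by the 3 members above 100 TPM in both libraries. Aof-miR168h was listed at 573 TPM in the female library against 457 TPM in the male library, giving a ratio of 1.26 (95% counting interval 1.19 to 1.33). Aof-miR168i had 545 TPM in the female library against 273 TPM in the male library, giving a ratio of 1.995 (1.87 to 2.12). The main 3′ arm sequence, aof-miR168a-1, had 385 TPM in the female library against 602 TPM in the male library, a male to female ratio of 1.57 (1.48 to 1.66). Rescaled by the median ratio of all listed miRNAs, the female to male ratios of the 3 came to 1.11, 1.77 and 0.565, in this order. These lay outside the counting intervals, with the directions kept. Both guide-like sequences were therefore higher in the female library against the main opposite strand in the male library, where it was the most abundant sequence of the family.

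The guide-like sequences also differed from each other. Aof-miR168i reached 95.0% of the value of aof-miR168h in the female library against 59.8% in the male library, although the sequences differ only in their last 2 bases. Set against the same opposite strand, the ratio of aof-miR168h to aof-miR168a-1 was 1.49 in the female library against 0.758 in the male library, a 1.97-fold difference (1.82 to 2.13). The ratio of aof-miR168i to aof-miR168a-1 was 1.42 in the female library against 0.454 in the male library, a 3.12-fold difference (2.87 to 3.40). The ends of aof-miR168i and aof-miR168h lie outside the facing part of the duplex, and which hairpin each came from was not determined.

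**Figure D2:**
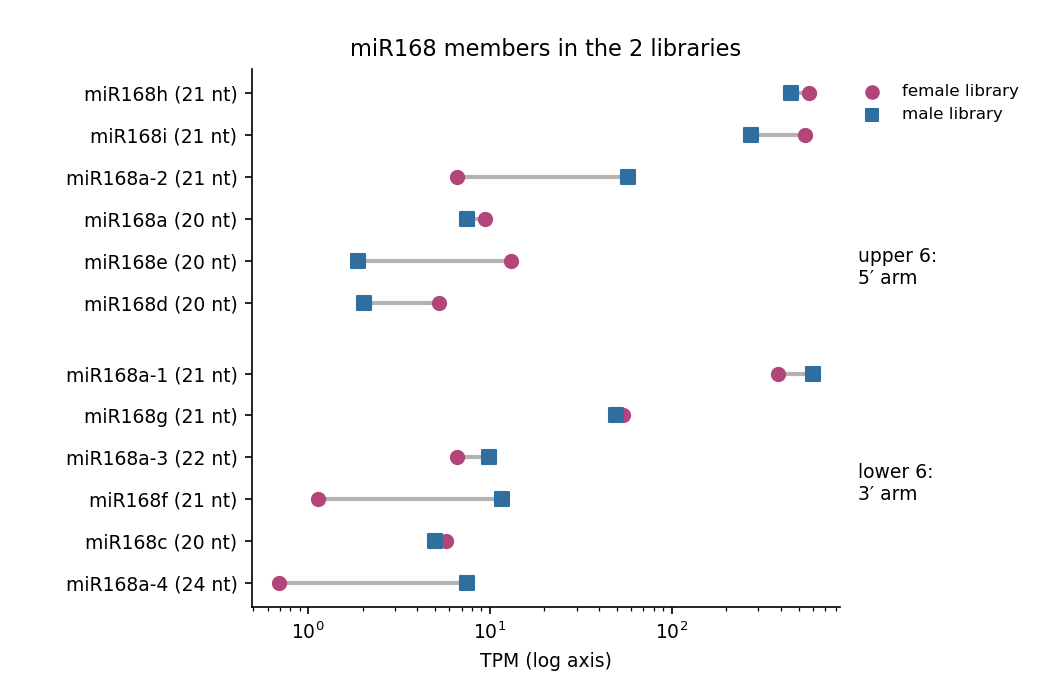
TPM of each miR168 member on a log axis in the female library (circles) and the male library (squares), joined by a line, with the 5′ arm above and the 3′ arm below. Most of the value lies in aof-miR168h, aof-miR168i and aof-miR168a-1, between 273 and 602 TPM, and the longest lines belong to members at or below 57.4 TPM.

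Of the 12 members, 5 were over 2-fold apart, 2 of them higher in the female and 3 in the male library. Over all 194 listed miRNAs, 30.9% were over 2-fold apart, 18.0% on the female and 12.9% on the male side. The list kept sequences with at least 5 TPM in either library, and 4 of the 5 members were under 5 TPM in the lower library, so they were listed through the library in which they were high and the count of 5 says little about the family. Among the 8 members with at least 5 TPM in both libraries, 1 was over 2-fold apart, beside 16.2% of the 142 listed miRNAs above that level.

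That member was aof-miR168a-2, a 5′ arm sequence that went against its arm. It was listed at 6.63 TPM in the female library against 57.4 TPM in the male library, a male to female ratio of 8.66 (counting interval 5.93 to 13.1). As a female to male ratio this was 0.115, and 0.186 with 5 TPM added to both values. It made up 0.575% of the 5′ arm in the female library against 7.19% in the male library. It is the only 5′ arm member with A at position 14, and the only one of the 6 that was higher in the male library.

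The 3′ arm sequences with G at position 16, aof-miR168f and aof-miR168a-4, were under 5 TPM in the female library and were listed only through the male library, so their direction was set by the filter and is given as a description. Aof-miR168f had 1.14 TPM in the female library against 11.6 TPM in the male library, a male to female ratio of 10.2 (4.16 to 32.2). The 24-nt aof-miR168a-4 had 0.69 TPM in the female library against 7.53 TPM in the male library, a male to female ratio of 10.9 (3.54 to 55.1). These female values stand for 5 and 3 reads if 1 step is 1 read, so the size of both ratios is loosely fixed. With 5 TPM added to both values, the female to male ratio came to 0.370 for aof-miR168f and 0.454 for aof-miR168a-4, in place of 0.098 and 0.092.

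The 3 members over 2-fold higher in the male library were also the only members without a mismatch to the rice hairpin over the bases it holds. The hairpin is 67 nt long and was given by the study as the precursor for aof-miR168a-2. Capitals mark the bases shared with aof-miR168a-2 (positions 1 to 21) and with the first 22 bases of aof-miR168a-4 (positions 46 to 67), where the listed hairpin ends. Its predicted fold had an energy of -42.5 kcal/mol with 54 paired bases.

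rice hairpin: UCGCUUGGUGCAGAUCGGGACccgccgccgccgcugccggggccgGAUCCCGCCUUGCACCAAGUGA

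Of these members, only aof-miR168a-2 had at least 5 TPM in both libraries, and the direction of the other two was set by the filter. Together they summed to 8.46 TPM in the female library against 76.6 TPM in the male library. They held 0.527% of the family in the female library against 5.16% in the male library. The ratio of aof-miR168a-2 to aof-miR168f was 5.82 in the female library against 4.94 in the male library, a 1.18-fold difference. Its interval (0.429 to 4.01) includes no difference and also the 2.18-fold difference of the whole family. Aof-miR168f was also listed only through the male library. This comparison therefore cannot tell whether these 2 sequences shared the shift of the arms. Without the 3 sequences, the difference in arm ratio between the libraries was 2.28-fold, beside 2.18-fold with them. The match was noticed after the values were seen, and no asparagus hairpin was used, so it does not show that the 3 sequences come from 1 locus.

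The remaining members, all low except aof-miR168g, had ratios mostly within counting error. Aof-miR168e had 13.0 TPM in the female library against 1.88 TPM in the male library, giving a ratio of 6.93 (3.67 to 14.2), the largest in the female direction among the members, which came to 2.62 with 5 TPM added to both values. Aof-miR168d had 5.26 TPM in the female library against 2.04 TPM in the male library, giving a ratio of 2.58 (1.25 to 5.54), so that its interval reached below 2-fold, and the ratio came to 1.46 with 5 TPM added. Both were under 5 TPM in the male library and were listed only through the female library. Both are shortened forms, and the unshortened forms, aof-miR168i and aof-miR168h, were closer between the libraries. The other shortened forms, aof-miR168a and aof-miR168c, were not over 2-fold apart, with female to male ratios of 1.24 and 1.14.

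For 4 members the counting interval of the ratio included 1. Aof-miR168a had 9.37 TPM in the female library against 7.53 TPM in the male library, giving a ratio of 1.24 (0.80 to 1.93). Aof-miR168g had 54.2 TPM in the female library against 49.3 TPM in the male library, giving a ratio of 1.10 (0.925 to 1.31), which fell below 1 under both rescalings. Aof-miR168c had 5.72 TPM in the female library against 5.02 TPM in the male library, giving a ratio of 1.14 (0.647 to 1.98). Aof-miR168a-3 had 6.63 TPM in the female library against 9.88 TPM in the male library, giving a ratio of 0.671 (0.417 to 1.06). A difference in these 4 was not detectable at this depth.

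**Figure D3:**
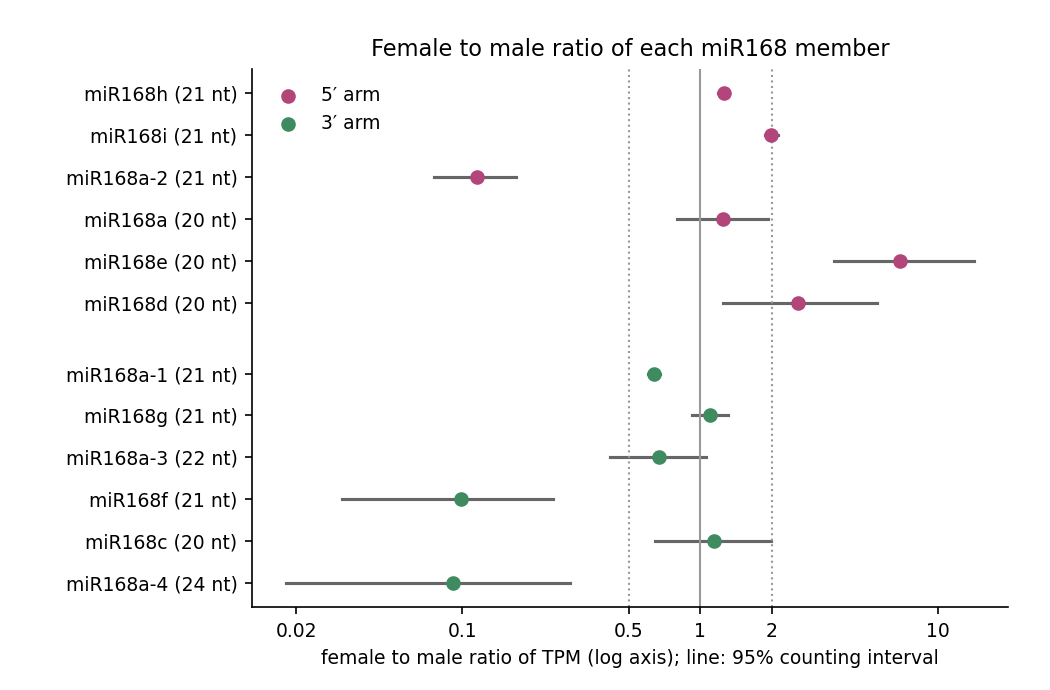
Female to male ratio of each miR168 member on a log axis, with the 95% counting interval as a line and 2-fold marked by dotted lines. Aof-miR168a-2, aof-miR168f and aof-miR168a-4 lie at 0.115, 0.098 and 0.092, apart from the other 9 members, and only aof-miR168e and aof-miR168d lie above 2. Except for aof-miR168a-2, the members named here were under 5 TPM in one library and listed only through the other, so the filter set their direction.

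The 5′ ends of the listed sequences were nearly constant in both libraries. End variants under 5 TPM in both libraries were not listed, so the shares leave them out. In the 5′ arm, 99.5% of the female and 99.7% of the male value had the 5′ end of aof-miR168h, and in the 3′ arm 97.1% and 96.7% had that of aof-miR168a-1. Sequences of 21 nt held 97.5% of the family in the female library against 97.7% in the male library. The first base, which in Arabidopsis guides the choice of argonaute (U for AGO1, C for AGO5), was U in 6 members, C in 5 and G in 1. Members that start with U summed to 1154 TPM in the female library against 806 TPM in the male library. Those that start with C, nearly all of the 3′ arm, summed to 451 TPM in the female library against 670 TPM in the male library. This split follows the arms, except that aof-miR168d starts with C and aof-miR168a-3 with U.

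The arms could be laid against each other in the form of a dicer product. Each of the 9 combinations of a 21-nt 5′ arm member with a 21-nt 3′ arm member formed 19 facing positions with 3′ overhangs of 2 nt, of which 16 to 18 were paired. In the duplex of aof-miR168h and aof-miR168a-1, 15 positions were Watson-Crick pairs, 2 were G:U pairs and 2, at positions 4 and 15 of aof-miR168h, were mismatches. The C16G of aof-miR168f turned the mismatch at position 4 into a pair, and the predicted energy with aof-miR168h went from -26.5 to -33.0 kcal/mol. The C12U of aof-miR168g turned the pair at position 8 into a G:U pair, with an energy of -23.9 kcal/mol. The G14A of aof-miR168a-2 added a mismatch at position 14, and its duplex with aof-miR168f had -29.2 kcal/mol against -22.7 kcal/mol with aof-miR168a-1. The energies are those of the predicted joint fold of both strands, whose pairs were not compared with the facing positions. Which strands were paired in the plant was not measured.

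**Figure D4:**
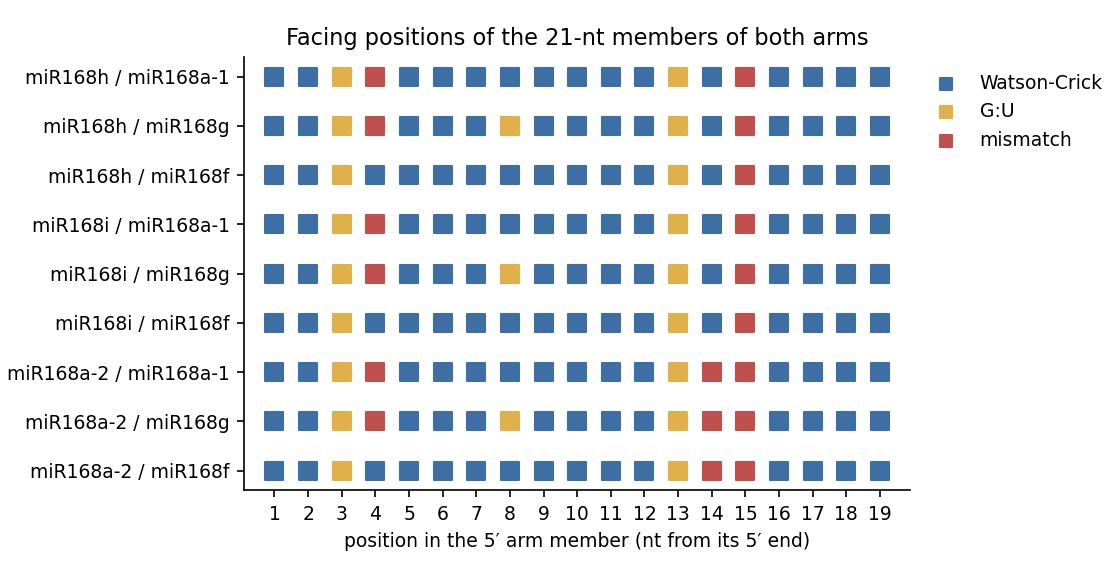
Pairing at each of the 19 facing positions, numbered along the 5′ arm member, for the 9 combinations of 21-nt members. All 9 share the G:U pairs at positions 3 and 13 and the mismatch at position 15, while position 4 is paired only with aof-miR168f and position 14 is mismatched only with aof-miR168a-2.

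Opposite arms of this kind were found for 4 other families, miR160, miR166, miR172 and miR396, by the same pairing rule. The rule allowed no gaps, so opposite arms that pair only with a bulge were not counted. Their less abundant arm held 3.71%, 1.20%, 27.5% and 0.681% of the family in the female library, and 1.18%, 0.803%, 8.88% and 0.498% in the male library. The miR168 share of 46.2% in the male library was above all of these, and its 28.2% in the female library was close to that of miR172. In miR166, miR172 and miR396 the less abundant arm took a larger share in the female library, by 1.37 to 3.89 times as an arm ratio, while in miR168 it took a larger share in the male library. The miR160 arm was a single sequence, aof-miR160c, at 5.72 TPM in the female library against 0.78 TPM in the male library, so it was listed only through the female library and its direction was set by the filter. With members of at least 5 TPM in both libraries, a setting chosen after the data were seen, no opposite arm was left in miR160, the directions in miR166, miR172 and miR396 were kept, and the miR168 arm ratio was 2.11 times as high in the female library. The exact conditional 95% counting intervals of the change in arm ratio did not overlap between miR168 (female over male 2.04 to 2.33) and miR396, the nearest of the others (0.585 to 0.914). Sequences that the table assigns to no family were not counted in either arm. Nor were sequences under 5 TPM in both libraries, which were not listed, so the shares leave them out.

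The target table gave no argonaute for the family. Its 7 miR168 rows, from 7 of the 12 members, named only 2 asparagus unigenes (assembled transcripts), UN19541 and UN12134, and both were annotated as having no database hit, as were 56.2% of all 463 rows. Neither unigene was listed for another family. No row of the table for any family had an annotation naming an argonaute, a dicer, an RNA-dependent RNA polymerase, HEN1, SERRATE, HYL1 or an exportin. The families miR162 and miR403, which in Arabidopsis act on DICER-LIKE1 and AGO2, had no sequence in the expression table and no row in the target table. Whether an asparagus AGO1 transcript carries a miR168 site was therefore not analysed here.

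The score of each row could be recomputed exactly from its alignment in all 463 rows, as 1 for a mismatch, 0.5 for a G:U pair and 2 for a gap, so a lower score is closer pairing. The table held scores from 0.5 to 3. The sites are written 5′ to 3′ as the table gives them, with the bases that face positions 10 and 11 of the miRNA, between which argonautes usually cut, in capitals. The first faces aof-miR168i and the second aof-miR168a-1.

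UN19541: cacccgagcuGCaccaagcua
UN12134: auucaguugaUGcaaggcggg

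UN19541 was listed for the 5′ arm, on the plus strand at bases 24 to 44. The score was 2 for aof-miR168e and 3 for aof-miR168a and aof-miR168i, and all had mismatches at positions 2 and 14. Under the same scoring aof-miR168h and aof-miR168a-2 came to 4 here, above the highest score in the table. The 5′ arm sequence with the highest value in both libraries was thus not among those listed for this site, and the one with the closest pairing, aof-miR168e, was below 15 TPM in both.

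UN12134 was listed for the 3′ arm, on the minus strand at bases 41 to 64. Aof-miR168a-1 and aof-miR168a-3 scored 1, and aof-miR168f and aof-miR168a-4 scored 2. By the same scoring aof-miR168g came to 0 and aof-miR168c to 1, but neither was listed. The forward strand of these bases is given because it reads as a member of the family itself, with capitals for the 21 bases, positions 44 to 64, that are identical to aof-miR168g.

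UN12134 forward strand: gauCCCGCCUUGCAUCAACUGAAU

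The 3 bases before them are also those with which aof-miR168a-4 begins. The transcript as assembled thus carried the sequence of a 3′ arm member, and the listed pairing was with its complement. In the whole table, 191 rows were on the minus strand, and in 24 of them, including these 4, the forward strand held or lay within a listed miRNA. The table has no sample columns, so nothing about the sexes can be read from these sites.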

How the data were processed

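Small RNA libraries of 1 female and 1 male pool were compared. The expression values were deposited by the authors in RPM, which they call TPM: reads were cleaned of adapters and of rRNA, tRNA, snRNA and snoRNA, scaled to the library, and kept at 20 to 24 nt and at least 5 TPM in one library. Families were assigned by comparison with miRBase 21 with up to 2 mismatches, so that a member is named by similarity and end or sequence variants are listed apart. The target table holds a score, deposited by the authors, of each alignment between a miRNA and a unigene. The study named CleaveLand and psRNATarget for its target searches, but which of them made this table is not given in the sources used here.

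Each ratio was taken directly between both values, with no pseudocount, and over 2-fold was counted. The members and lists were chosen with earlier results of these data known. All 12 members, both target unigenes and the 3 families nearest in log2 ratio are named. Depth was estimated from the step between values up to 60 TPM, of which 99.4% in each library were whole multiples within 0.0051 TPM. No count test was run on these reads, and intervals rest on them. Reads from PCR without molecular identifiers are not independent molecules. If 1 step is 1 read, 5 TPM stands for 21.9 female and 31.9 male reads. Arms were split by ungapped alignment, and duplexes required 15 paired of at least 17 facing positions with 3′ overhangs of 1 to 3 nt. Mature sequences came from the expression table and the rice hairpin from the study's supplementary sequences. Energies were computed with RNAfold and RNAcofold of ViennaRNA 2.7.2 at default settings. Steps were tested on simulated data. Python 3.11.15, numpy 2.4.6, scipy 1.17.1 and matplotlib 3.10.9 were used. Alternatives were other scalings, 1 or 5 TPM added, minimum values (10 TPM in either library, 5 TPM in both), a 3-fold threshold, merged end variants, and the lower part of the score range.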

Additional observations from a re-analysis of the deposited data

How the results depend on the processing

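Rescaled by the median ratio of all listed miRNAs or by their summed values, the female to male ratio of the family sum was 0.957 and 0.969 in place of 1.08, so that its direction depended on the scaling. The arm sums kept their directions under the same 2 rescalings, with female to male ratios of 1.28 and 1.29 for the 5′ arm and 0.585 and 0.592 for the 3′ arm. The difference in arm ratio was 1.97-fold in place of 2.18-fold with only the most abundant member of each arm. The number of members over 2-fold apart, 5 of 12, was 3 of 7 under a minimum of 10 TPM in either library, and 3 of 6 groups with end variants summed, where aof-miR168i and aof-miR168e together came to 2.03-fold. It was 1 of 8 with at least 5 TPM in both libraries, a setting chosen after the data were seen. It was 4 with 5 TPM added or a 3-fold threshold. Below the middle of the score range, 1.75, 2 of the 7 target rows were left. Of the 48 values of single members under other scalings and pseudocounts, 38 stayed within the counting interval and 10 moved out of it, and aof-miR168g was the only member that changed its direction. No paired analysis was possible because each sex had 1 library, and for the same reason no replicate could be left out.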
